A study of Mus musculus with 6 samples.

Results

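The genes described here are 10 members of the Notch pathway, namely the ligands Jag1, Jag2, Dll1 and Dll4, the receptors Notch1, Notch2 and Notch3, and the targets Hes1, Hey1 and Nrarp. They were chosen by name, with earlier results of these data known, as the rows with these symbols in every library's count table. All 10 were found among 23337 genes listed, and all 10 were among the 13017 genes with enough counts to be tested. RNA was sequenced from whole pancreas of NMRI mice at postnatal day 7. The 3 control libraries carried the genotype Ptf1a cre/+, a Cre recombinase allele at the gene of an acinar and progenitor transcription factor, and the 3 mutant libraries carried the same Cre allele together with the transgene CAG-loxP-STOP-loxP-Prox1-LacZ, which makes Prox1 from the ubiquitous CAG promoter in cells where Cre has removed the stop cassette. Every animal therefore had the cre allele, and no library without Cre was analysed here. The design text speaks of control pools and of single mutant pancreata whereas the extraction protocol speaks of single pancreata, so pooling and genotype cannot be told apart, and p-values measure the spread between these libraries.

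Notch receptors are transmembrane proteins that are activated by Jagged or Delta-like ligands on the surface of a neighbouring cell. Binding leads to cleavage of the receptor by ADAM proteases and then by gamma-secretase, and the freed intracellular domain joins the DNA-binding protein RBPJ and a Mastermind coactivator to switch on target genes, many of them repressors of the Hes and Hey families. In the pancreas the pathway is known for holding back endocrine and acinar differentiation of progenitors, for its activity in duct and centroacinar cells, and, through Dll4, Notch1, Notch3 and Jag1, for its part in blood vessels.

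Prox1, the gene that the transgene carries, was read first as a check on the labels. Its level, in CPM (counts scaled to 1e6 a library) after scaling for library composition, was 10.8, 7.84 and 9.13 for the controls, numbered 1 to 3, and 25.5, 31.3 and 30.9 for the mutants, numbered likewise. Every library labelled mutant thus lay above every control, and the log2 fold change was 1.67 ± 0.15 (SE; edgeR quasi-likelihood test, Benjamini-Hochberg adjusted p = 0.000239), a 3.18-fold difference. Libraries held 7304727 to 10773223 counts, so that 1 CPM stood for 6.66 to 10.5 counts, and the 15 most abundant genes took 60.8 to 64.7% of each. The tissue label matched its markers, since 8 acinar enzyme and secretory genes summed to 283067 to 301185 CPM in controls and 222204 to 276943 CPM in mutants. Control 1 stood apart in sex, with 7110 Xist counts and 0 counts of 4 Y-linked genes against at most 4 and at least 1132 in the other 5 libraries. Mutant 2 stood apart in lymphocyte markers, of which the 8 genes summed to 101 CPM there against 7.09 to 29.0 CPM elsewhere.

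Among the 10 genes and 63 further Notch pathway genes, those that passed the test (adjusted p under 0.05) were Jag1 and Lfng, which were lower in mutants, and Neurl3, which was higher. Their promoter windows, 250 bases before to 50 bases after the RefSeq start on build GRCm38.p6, are shown because these 3 genes passed the test. They are read 5′ to 3′ on the gene's own strand. Capitals mark TGGGAA, the core of the motif that RBPJ binds, or its complement TTCCCA.
Jag1: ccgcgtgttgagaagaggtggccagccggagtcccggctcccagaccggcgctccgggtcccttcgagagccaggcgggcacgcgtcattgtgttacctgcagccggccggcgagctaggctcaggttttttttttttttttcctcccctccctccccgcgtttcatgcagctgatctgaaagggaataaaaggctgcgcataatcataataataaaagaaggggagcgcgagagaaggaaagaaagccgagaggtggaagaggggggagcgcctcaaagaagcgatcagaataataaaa
Lfng: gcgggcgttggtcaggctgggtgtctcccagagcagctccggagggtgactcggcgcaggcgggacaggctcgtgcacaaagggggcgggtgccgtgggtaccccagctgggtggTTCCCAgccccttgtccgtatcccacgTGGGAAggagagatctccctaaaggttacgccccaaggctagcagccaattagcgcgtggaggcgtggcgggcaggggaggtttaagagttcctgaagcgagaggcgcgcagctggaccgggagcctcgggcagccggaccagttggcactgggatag
Neurl3: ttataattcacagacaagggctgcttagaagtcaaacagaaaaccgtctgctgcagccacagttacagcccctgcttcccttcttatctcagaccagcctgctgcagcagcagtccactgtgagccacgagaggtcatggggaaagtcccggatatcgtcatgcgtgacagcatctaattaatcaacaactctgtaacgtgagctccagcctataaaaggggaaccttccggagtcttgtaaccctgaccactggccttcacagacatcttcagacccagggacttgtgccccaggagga
The Jag1 window is chr2:137116471-137116770 on the minus strand, that of Lfng is chr5:140607091-140607390 on the plus strand, and that of Neurl3 is chr1:36273376-36273675 on the minus strand. For all 3 the RefSeq start lies inside the gene as GENCODE draws it. The Lfng window held 2 matches to TGGGAA, the first bases of which lie 135 and 108 bases before the start, and 1 of them, at 108 bases, extended to GTGGGAA. The windows of Jag1 and Neurl3 held 0. Of 32851 promoters of the same length, 25.6% held TGGGAA and 6.38% held the longer GTGGGAA, which contains it, on either strand. A promoter was found in the table for 8 of the 10 genes (all but Hes1 and Hey1), and 0 of these 8 held the core motif. A match or its lack describes these letters only.

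Jag1 encodes Jagged1, the ligand made in duct epithelium, vessel wall and endothelium (GRCm38 chromosome 2, 137081456 to 137116644, minus strand, GENCODE M21), and none of its exon bases overlap another annotated gene. It had 29.2, 29.8 and 32.5 CPM in the control libraries and 18.9, 19.5 and 18.9 CPM in the mutant ones, from 168 to 338 counts a library. The groups did not overlap, and the 3 mutants lay closer together (19.1 ± 0.341 CPM, SD, n = 3) than the controls (30.5 ± 1.75 CPM, SD, n = 3). Jag1 fell by 0.68 ± 0.10 (SE) on the log2 scale, with a 95% interval of -0.90 to -0.45 (edgeR adjusted p = 0.00626), which is a level 37.5% below that of controls. Without control 1, the Xist-positive library, the log2 fold change was -0.71 (adjusted p = 0.0146). With library totals alone as scaling it was -0.51 (edgeR adjusted p = 0.0511), where the median of all genes stood at 0.17, so that the call was lost while Jag1 lay as far below the median.

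Jag2, the second Jagged ligand (chromosome 12, 112907819 to 112929776, minus strand), had control levels of 5.71, 6.63 and 4.998 CPM and mutant levels of 6.38, 6.38 and 6.59 CPM. Its groups overlapped, and its log2 fold change of 0.16 ± 0.18 (SE) had a 95% interval of -0.24 to 0.56 (edgeR adjusted p = 0.793). Dll1, the Delta-like ligand linked to progenitor fate choice (chromosome 17, 15367354 to 15376872, minus strand), had 5.71, 5.30 and 6.54 CPM across the controls, against 4.09, 5.22 and 4.99 CPM across the mutants. Each mutant lay below each control, with control 2 and mutant 2 nearly level, and the fit did not call it (-0.30 ± 0.20 (SE), 95% interval -0.74 to 0.14, edgeR adjusted p = 0.592). Of its exon bases 20.5% overlap the antisense gene A930024N18Rik, and no source used here states that strand was used in counting. Dll4, the Delta-like ligand of endothelial cells (chromosome 2, 119325784 to 119335962, plus strand), had 9.92, 11.6 and 8.75 CPM in the control libraries and 8.95, 6.85 and 8.88 CPM in the mutant ones. These groups overlapped through control 3, and the difference of -0.29 ± 0.17 (SE) missed the threshold (edgeR adjusted p = 0.555).

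Notch1, the receptor of progenitors, endothelium and lymphocytes (chromosome 2, 26457903 to 26516663, minus strand), had control levels of 34.7, 23.6 and 25.8 CPM and mutant levels of 18.2, 24.7 and 21.7 CPM. Control 1 was the highest and mutant 2 lay above control 2, so the groups overlapped. The log2 fold change was -0.38 ± 0.16 (SE) with an unadjusted p of 0.0456 and an edgeR adjusted p of 0.379, and without control 1 it was -0.20. Antisense genes overlap 10.4% of its exon bases. Notch2, the receptor of pancreatic epithelium and mesenchyme (chromosome 3, 98013527 to 98150361, plus strand), had 19.4, 25.1 and 27.5 CPM across the controls, against 23.6, 22.2 and 20.2 CPM across the mutants. The mutants fell within the control range, and the log2 difference was -0.14 ± 0.14 (SE; 95% interval -0.45 to 0.17, edgeR adjusted p = 0.770), turning to 0.03 with library totals alone. Notch3, the receptor of pericytes and smooth muscle (chromosome 17, 32120820 to 32166852, minus strand), had 12.9, 12.4 and 10.5 CPM in the control libraries and 9.62, 17.6 and 12.6 CPM in the mutant ones. Mutants 1 and 2 were the lowest and the highest of all 6 libraries, and the log2 fold change of 0.15 ± 0.21 (SE; edgeR adjusted p = 0.842) became -0.09 without mutant 2. None of the 3 receptors passed the test. Mutant 2, with its high lymphocyte sum, had the highest mutant level of both Notch1 and Notch3, and the part of lymphocytes in these values was not tested.

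Hes1, the repressor that is the best known Notch target in pancreas (chromosome 16, 30064384 to 30067796, plus strand), had control levels of 12.2, 11.5 and 12.01 CPM and mutant levels of 11.2, 9.86 and 9.98 CPM. All 3 mutants lay below all 3 controls, with control 2 and mutant 1 the nearest pair. The log2 fold change of -0.20 ± 0.13 (SE; 95% interval -0.49 to 0.09) did not pass the test, with an unadjusted p of 0.163 and an edgeR adjusted p of 0.605. Hey1, a related repressor of vessels (chromosome 3, 8663359 to 8667256, minus strand), was the scarcest by CPM, at 3.46, 2.54 and 3.94 CPM across the controls and 2.86, 3.95 and 2.20 CPM across the mutants, from 22 to 41 counts. Its groups covered nearly the same range, and the 95% interval of its log2 fold change, -0.82 to 0.51 around -0.15, was the widest of the 10 genes (edgeR adjusted p = 0.899). The sign turned without control 3, without mutant 3 or with library totals alone. Nrarp, a target that feeds back to restrain the receptor's intracellular domain (chromosome 2, 25180758 to 25183339, plus strand), had 7.97, 5.63 and 6.54 CPM across the controls, against 5.43, 4.41 and 6.19 CPM across the mutants. Mutant 3 lay above control 2, and the difference of -0.31 ± 0.21 (SE) was not called (edgeR adjusted p = 0.605). For Nrarp, 79.4% of exon bases overlap the antisense gene Gm38287, so reads of the pair cannot be told apart without strand.

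**Figure D1:**
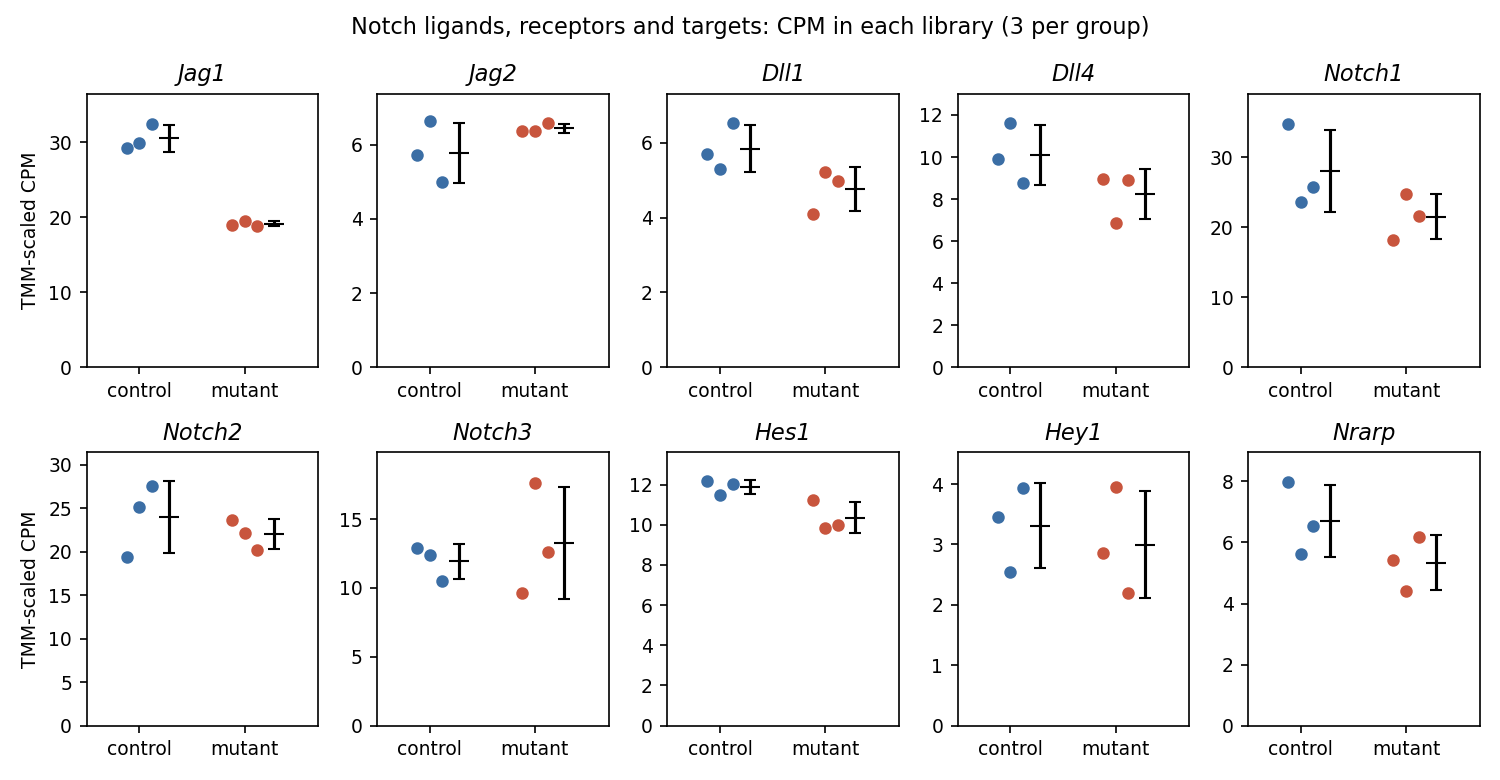
TMM-scaled CPM of each of the 10 genes in each library, control and mutant groups side by side, with points for libraries and a bar for the mean ± SD of 3. Jag1 shows the widest gap between groups, 29.2 to 32.5 CPM against 18.9 to 19.5 CPM, whereas the groups overlap for 7 genes (Jag2, Dll4, Notch1, Notch2, Notch3, Hey1 and Nrarp).

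Of the 10 genes, 1 was called lower (Jag1) and 0 were called higher, beside 1.51% of all 13017 tested genes called lower and 0.545% called higher. The DESeq2 test and limma gave the same 1 and 0. With library totals alone 0 of the 10 were called, and the split over all genes turned from 197 lower and 71 higher to 130 lower and 190 higher. An unadjusted p under 0.05 was reached by 2 of the 10 (Jag1 and Notch1, both lower), beside 12.8% of all tested genes. Groups that did not overlap, with every mutant lower, were seen for 3 of the 10 (Jag1, Dll1 and Hes1), beside 9.86% of all tested genes, and the opposite pattern for 0 of the 10, beside 9.13%. Fitted log2 differences were negative for 8 of the 10 (6 with library totals alone, where Notch2 and Hey1 changed sign) and ran from -0.68 to 0.16, with a median of -0.24 beside 0.0045 over all tested genes. The other 9 had no call, and no test was made over the list. Hey1, Dll1, Jag2 and Nrarp had the fewest counts, 22 to 68 in each library. Leaving out 1 library at a time moved the uncalled values by differing amounts, while none passed edgeR's test. Hes1 moved least of them, from -0.26 (without mutant 1) to -0.16 (without mutant 2). Jag2 ran from 0.06 (without control 3) to 0.28 (without control 2), and Dll1 from -0.37 (without control 2) to -0.20 (without mutant 1). Dll4 ran from -0.39 (without control 3) to -0.17 (without mutant 2), and was also -0.17 without control 2. Notch2 ran from -0.26 (without control 1) to -0.02 (without control 3), and Nrarp from -0.43 (without mutant 3) to -0.19 (without control 1 or mutant 2).

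Levels of different genes were set against each other per length of exon, as CPM per kilobase (kb) of all annotated exon bases. In controls the order was Hes1 (5.84 ± 0.177 CPM per kb, SD, n = 3), Jag1 (5.23 ± 0.301), Dll4 (2.62 ± 0.372), Nrarp (2.60 ± 0.456), Notch2 (2.23 ± 0.385), Notch1 (1.97 ± 0.414), Notch3 (1.48 ± 0.159), Dll1 (1.39 ± 0.149), Hey1 (1.02 ± 0.218) and Jag2 (0.830 ± 0.117). Library ranges separated Hes1 from Jag1, Jag1 from Dll4, Notch1 from Notch3, and Dll1 from Hey1, whereas the other neighbours in this order overlapped. In mutants Hes1 stood at 5.09 ± 0.373 and Jag1 at 3.28 ± 0.0582 CPM per kb, and they again held the first and second place. Below them came Dll4 (2.14 ± 0.311), Nrarp (2.07 ± 0.346), Notch2 (2.04 ± 0.161), Notch3 (1.64 ± 0.501), Notch1 (1.51 ± 0.230), Jag2 (0.926 ± 0.0173) and Hey1 (0.919 ± 0.270), with Dll1 between Notch1 and Jag2, so that Notch3 passed Notch1 and Jag2 passed Hey1, each within overlapping ranges. Per kb of the longest transcript instead, a choice made after the exon lengths were seen, Notch1 stood at 2.96 CPM in controls and moved above Dll4, because its 14232 exon bases include many outside its longest transcript of 9488 bases. By that length Notch1 also stayed above Notch3 in both groups (2.96 and 1.49 in controls, 2.27 and 1.66 in mutants). The passing of Notch1 by Notch3 thus depended on the length used.

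**Figure D2:**
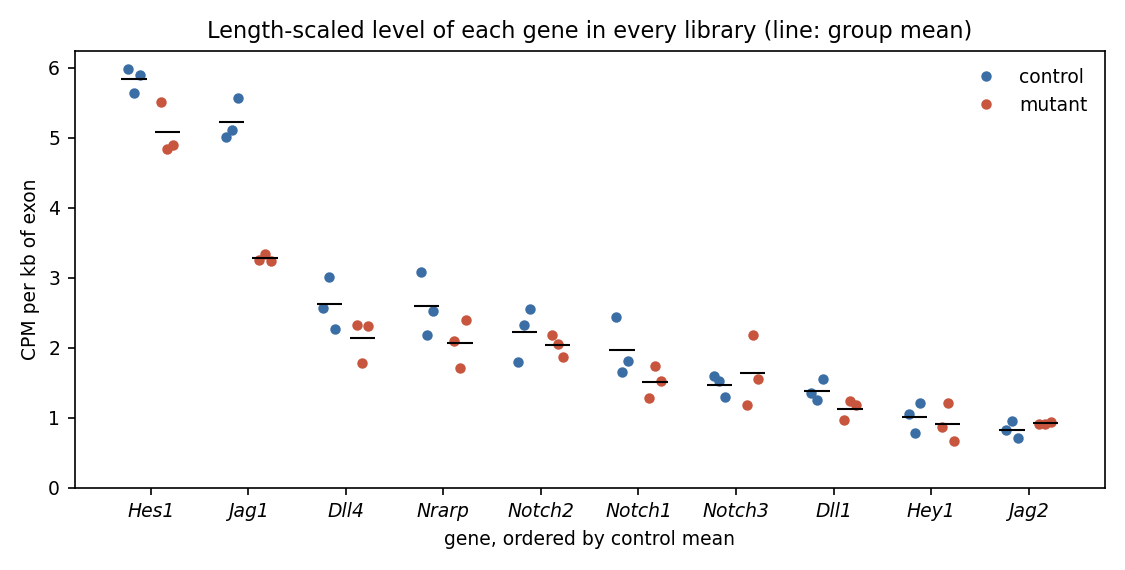
CPM per kb of exon for the 10 genes in each library, ordered by the control mean, with points for libraries and a line for the mean of 3. Hes1 and Jag1 lie above the other 8 genes in both groups, and Jag1 is the gene whose mutant points are farthest below its control points.

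Added up by role, the 4 ligands came to 9.76, 10.3 and 10.1 CPM per kb in controls and to 7.46, 7.28 and 7.67 in mutants, with no overlap. Jag1 made up 51.3, 49.5 and 55.1% of that sum in controls and 43.6, 46.0 and 42.2% in mutants. Jag2 made up 8.24 ± 1.07% in controls and 12.4 ± 0.170% in mutants (SD, n = 3), while its own CPM did not pass the test. The 3 receptors summed to 5.67 ± 0.162 and 5.19 ± 0.691 CPM per kb, with overlapping groups. The 3 targets summed to 10.1, 8.60 and 9.64 CPM per kb in controls and 8.49, 7.76 and 7.97 in mutants, where the highest mutant (8.49) lay close under the lowest control (8.60). Hes1 made up 62.0% of the target sum in controls and 63.0% in mutants. These sums are descriptions with no test.

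A ratio of 2 genes within a library does not depend on how libraries are scaled, so Jag1 was also set against each other ligand and each receptor, as the log2 ratio of counts. The ratio of Jag1 to Jag2 was 2.34, 2.16 and 2.69 in controls and 1.56, 1.60 and 1.51 in mutants, a difference of -0.84. The ratios to Notch3 (-0.79), Notch2 (-0.56) and Dll1 (-0.38) were likewise lower in every mutant than in every control. Each of these 4 had p = 0.1 in the two-sided exact permutation test, the smallest p that 3 against 3 libraries allow, and 0.15 after adjustment over the 6 ratios. No ratio could therefore have passed the threshold of 0.05. All 6 ratios share Jag1, the 1 called gene of the 10, so they are not separate results and restate its lower level. The ratio to Dll4 differed by -0.38 (exact permutation p = 0.2, adjusted 0.24) and that to Notch1 by -0.30 (exact permutation p = 0.3, adjusted 0.3), both with overlapping groups.

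**Figure D3:**
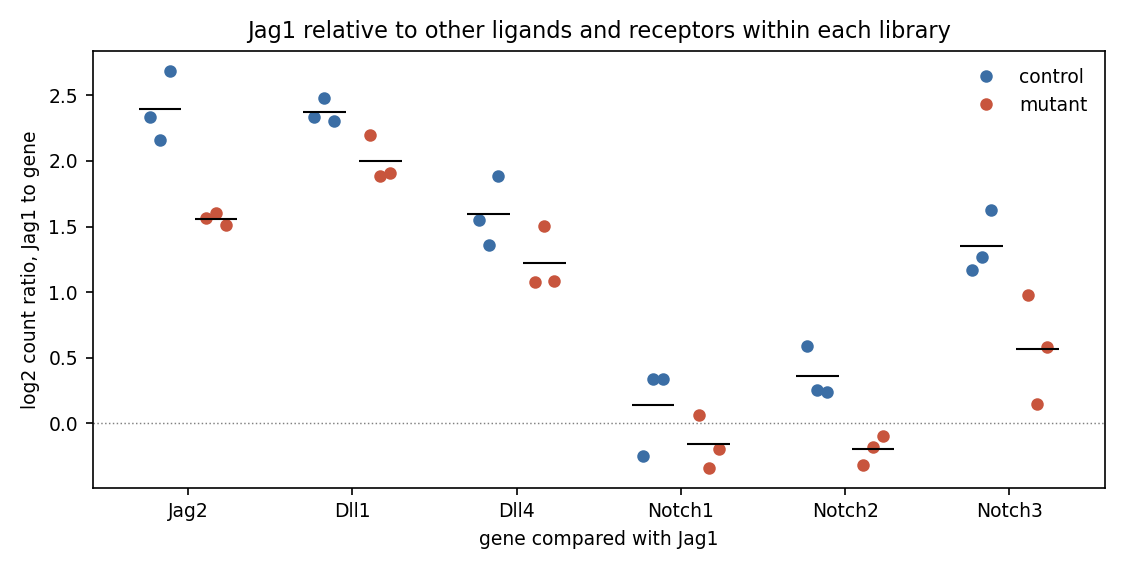
Log2 count ratio of Jag1 to each of 3 ligands and 3 receptors within each library, with points for libraries and a line for the mean of 3. Mutant points lie below all control points for Jag2, Dll1, Notch2 and Notch3, and the groups overlap for Dll4 and Notch1.

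Because whole pancreas was used, fewer cells of a type and less RNA per cell cannot be told apart. Marker sums of the cell types that carry these genes were therefore read in the same libraries. The 12 endothelial markers, among them Pecam1 and Cdh5, summed to 276 to 297 CPM in controls and 273 to 302 CPM in mutants, and edgeR called 0 of 12, with 0 at an unadjusted p under 0.05. The 10 mural markers, among them Pdgfrb and Rgs5, summed to 208 to 257 CPM in controls and 228 to 260 CPM in mutants, also with 0 called and 1 at that unadjusted p. The 10 duct markers summed to 859 to 972 CPM in controls and 650 to 874 CPM in mutants, with 0 called. Of the 10, 5 reached that unadjusted p, beside 12.8% of all tested genes in either direction. Among these 5, 4 were lower in mutants and 1, Cftr, was higher (log2 difference 0.78, edgeR adjusted p = 0.264, named after its values were seen). Among the duct markers Krt19 had a log2 difference of -0.59 (edgeR adjusted p = 0.103) and Krt7 one of -0.16 (edgeR adjusted p = 0.725). The 8 acinar markers summed lower in every mutant, at 283067 to 301185 CPM in controls and 222204 to 276943 CPM in mutants. Of these 8, 1 was called lower (Cel, named after its values were seen), beside 1.51% of all tested genes. Most of the fall in the mean sum, from 293513 to 256272 CPM, came from Cel, with means of 66222 and 34864 CPM. Without Cel the sums of the 2 groups overlap. Fitted log2 differences were negative for 5 of the 8 and positive for 3, with Cpa1 at -0.16 (edgeR adjusted p = 0.709) and Cela2a at -0.03 (edgeR adjusted p = 0.969). The part of acinar content in the results was not tested. Ranges overlapped for endocrine (3178 to 5188 and 3248 to 3542 CPM), fibroblast (3711 to 5644 and 4055 to 5352 CPM) and glial markers (8.84 to 9.83 and 8.09 to 12.6 CPM). No list had a marker at 0 in all 6 libraries.

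Per 100 counts of the endothelial markers, Jag1 had 10.3, 10.03 and 11.8 counts in controls and 6.94, 6.52 and 6.26 in mutants. Per 100 counts of the duct markers it had 3.40, 3.13 and 3.34 in controls and 2.33, 3.00 and 2.16 in mutants. Both ratios were lower in every mutant than in every control. The ratio of means was 0.614 for endothelial, 0.594 for mural and 0.758 for duct markers. Most of the duct sum (control mean 928 CPM) came from genes named after their values were seen. They were Spp1, Muc1, Anxa2 and Epcam, with control means of 369, 186, 130 and 126 CPM. In mutant 2 Muc1 had 98.6 CPM, against 190 and 189 CPM in mutants 1 and 3. What the duct ratio owes to these genes was not tested. Dll4 had 3.51, 3.90 and 3.17 counts per 100 endothelial marker counts in controls and 3.28, 2.29 and 2.95 in mutants. Notch3 had 5.03, 5.54 and 5.03 per 100 mural marker counts in controls and 4.22, 6.78 and 5.39 in mutants. Those groups overlapped. The sum of the 8 macrophage markers moved the other way from Jag1, from 239 to 284 CPM in controls to 288 to 401 CPM in mutants. Of these 8, 2 were called higher, beside 0.545% of all tested genes, and 1 lower, beside 1.51%. Their part in the result was not tested.

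The 63 further pathway genes were listed by role, also with earlier results of these data known, and 57 of them had enough counts to be tested. Of the 57, 1 was called lower (Lfng), beside 1.51% of all tested genes, 1 was called higher (Neurl3), beside 0.545%, and 55 were not called. Fitted differences were negative for 36 (18 with library totals alone) and positive for 21, with a median of -0.04. An unadjusted p under 0.05 was reached by 14 of the 57, 10 of them lower in mutants, beside 1662 of all 13017 tested genes (12.8%), 958 of them lower. Groups did not overlap for 17 of the 57, of which 11 were lower and 6 higher in mutants, beside 9.86% and 9.13% of all tested genes.

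Lfng, Lunatic fringe, is a Golgi enzyme that adds a sugar to Notch receptors and so alters which ligands activate them (chromosome 5, 140607320 to 140615545, plus strand). It had 40.7, 39.4 and 41.5 CPM in the control libraries and 24.5, 28.2 and 23.3 CPM in the mutant ones. The groups were far apart, and Lfng fell by 0.68 ± 0.10 (SE) on the log2 scale (95% interval -0.92 to -0.45, edgeR adjusted p = 0.00771), a 1.61-fold difference. The call was lost without mutant 1 (-0.66, edgeR adjusted p = 0.0527) and with library totals alone (-0.51, adjusted p = 0.0633). At 16.2 CPM per kb in controls and 10.1 in mutants it exceeded all 10 ligands, receptors and targets. The other glycosylation enzymes did not pass: Pofut1, which adds the fucose that Lunatic fringe extends, differed by -0.03 (edgeR adjusted p = 0.963).

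Neurl3 belongs to the Neuralized-like family of ubiquitin ligases, whose founding members act on Notch ligands (chromosome 1, 36264597 to 36274679, minus strand). It had control levels of 4.51, 4.64 and 4.90 CPM and mutant levels of 8.47, 8.47 and 8.29 CPM. The groups did not overlap, and Neurl3 rose by 0.84 ± 0.16 (SE) on the log2 scale (95% interval 0.48 to 1.20, edgeR adjusted p = 0.0258), a 1.79-fold difference. This call was lost in 7 of 14 alternatives, among them the DESeq2 test (adjusted p = 0.0806) and the analyses without control 1, 2 or 3 and without mutant 1 or 3, while the log2 value stayed between 0.81 and 0.87 without any 1 library. Mib1 and Mib2, the ubiquitin ligases that make ligands active by endocytosis, differed by -0.19 and 0.02 (edgeR adjusted p = 0.762 and 0.977).

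**Figure D4:**
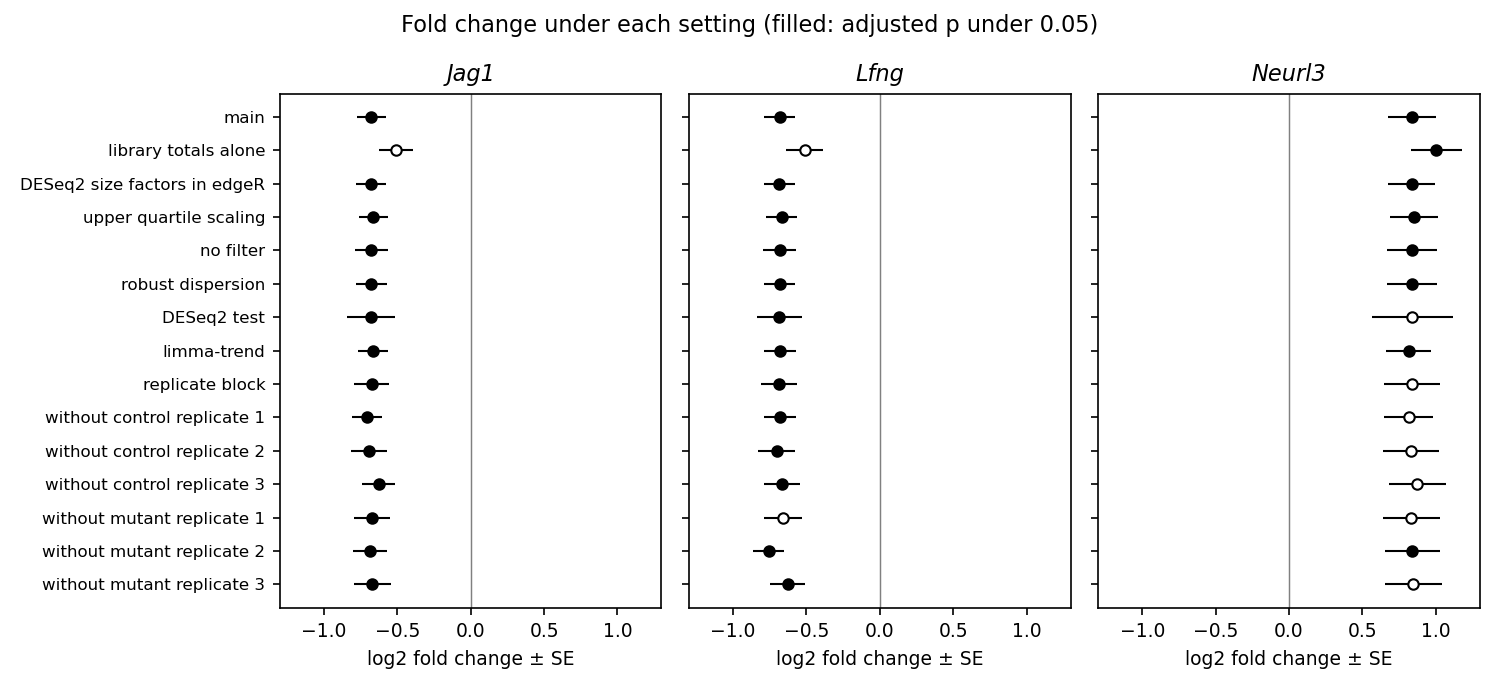
Log2 fold change ± SE of Jag1, Lfng and Neurl3 under the reported settings (top) and 14 alternatives, filled where the adjusted p was under 0.05. Jag1 was past that threshold in 13 of 14 alternatives, Lfng in 12 and Neurl3 in 7, and no point changed sign.

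Among the further genes outside the lists of ligand activation and receptor glycosylation, edgeR called 0 and the DESeq2 test 1 (Rbpjl). Among 10 genes of receptor cleavage, 2 had an unadjusted p under 0.05 (Psen2 and Psenen), beside 12.8% of all tested genes in either direction. Adam10 (0.02, edgeR adjusted p = 0.976) and Adam17 (-0.02, adjusted p = 0.969), the proteases of the first cut, were not called. Psen2, a gamma-secretase subunit named here after its values were seen, had 17.3, 18.3 and 16.1 CPM across the controls, against 12.8, 11.1 and 11.2 CPM across the mutants and narrowly missed the threshold (-0.56 ± 0.13 (SE), edgeR adjusted p = 0.0584). Among 6 genes of the nuclear complex the abundant coactivators Ep300 (0.01, edgeR adjusted p = 0.985) and Crebbp (-0.15, adjusted p = 0.793) were not called. Rbpj itself, also named after its values were seen, had 8.42, 11.5 and 7.98 CPM in the control libraries and 8.09, 5.45 and 13.5 CPM in the mutant ones, with mutants on both sides of all controls. The corepressor Ncor1 (0.05, adjusted p = 0.931) and the turnover genes Sel1l (-0.06, adjusted p = 0.914) and Nedd4 (-0.02, adjusted p = 0.980) did not pass edgeR's test.

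The remaining ligand and receptor genes tested were Dlk1, a non-canonical ligand-like protein, and Notch4, the endothelial receptor. Dlk1 differed by -0.05 (edgeR adjusted p = 0.920). Notch4 had control levels of 7.67, 5.97 and 5.77 CPM and mutant levels of 4.95, 4.87 and 4.59 CPM, with no overlap, and was not called (edgeR adjusted p = 0.410). Among other Hes and Hey genes, Heyl, a target in vessel walls, had 20.8, 14.9 and 15.5 CPM across the controls, against 11.8, 14.3 and 12.98 CPM across the mutants (-0.38 ± 0.16 (SE), edgeR adjusted p = 0.337). Hes6, which opposes Hes1, differed by -0.11 (edgeR adjusted p = 0.776). Dll3, Dlk2, Hes2, Hes3, Hes5 and Neurog3 had too few counts to be tested.

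Of the 6 pancreas factors tied to the pathway, edgeR called 0, and 4 had an unadjusted p under 0.05, all lower in mutants, beside 12.8% of all tested genes in either direction. Rbpjl, the acinar relative of RBPJ that does not bind Notch and works with PTF1A, had 349, 461 and 439 CPM in the control libraries and 285, 275 and 305 CPM in the mutant ones. Those groups did not overlap, at -0.53 ± 0.13 (SE; edgeR adjusted p = 0.0863), and Rbpjl passed the threshold with the DESeq2 test and without control 1. Sox9, the duct and progenitor factor, had control levels of 22.9, 18.7 and 22.0 CPM and mutant levels of 16.5, 16.8 and 14.2 CPM (-0.42 ± 0.13 (SE), edgeR adjusted p = 0.176).

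**Figure D5:**
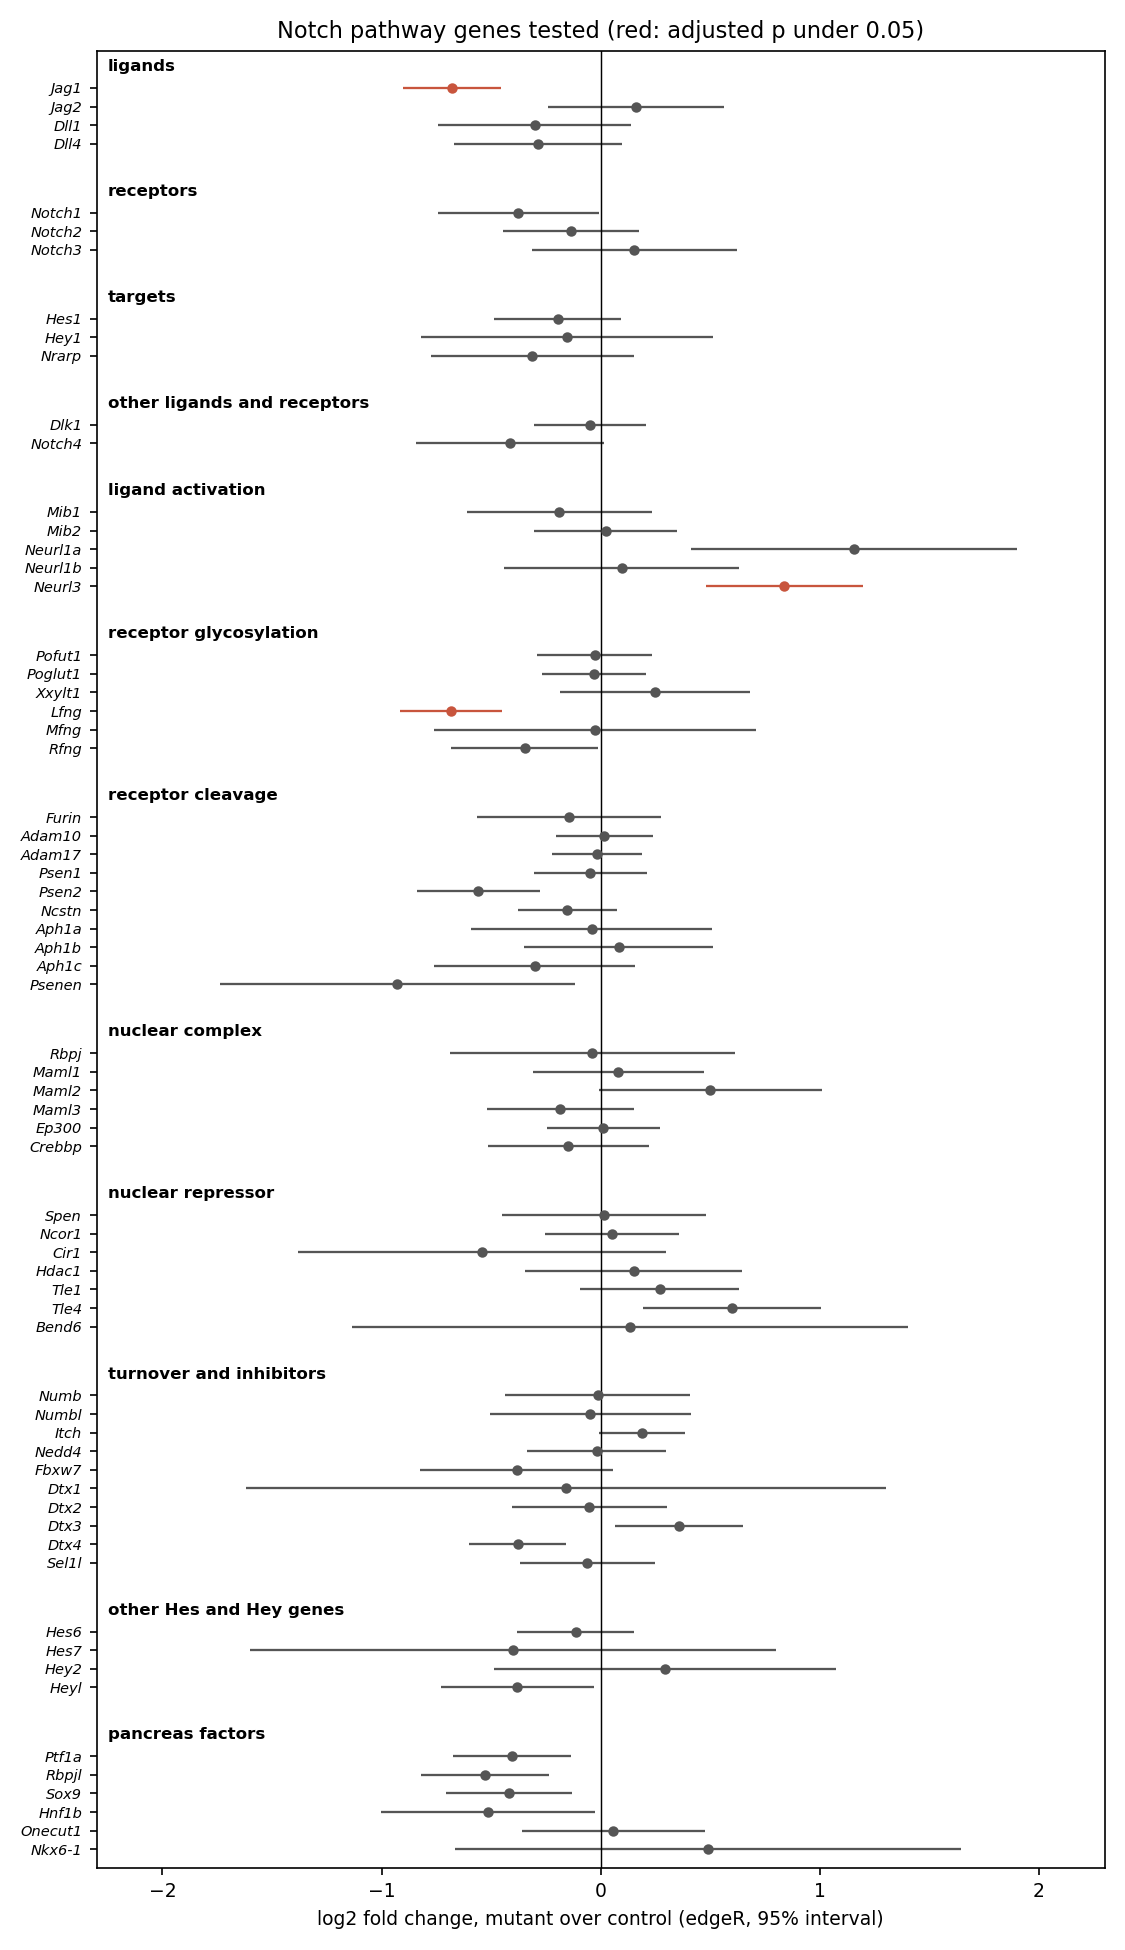
Log2 fold change with its 95% interval for the 10 genes and the other tested pathway genes (1 is not shown), grouped by role, with called genes in red. Jag1 and Lfng lie at -0.68, Neurl3 at 0.84, and the intervals of most other genes cross 0.

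The genes whose pattern over the 6 libraries was most like that of Jag1 were found among 10034 tested genes with a mean of at least 5 CPM, by the root mean square difference of centred log2 CPM. They were Rab4a, a GTPase of endosome recycling (distance 0.053), Chrm3, the M3 muscarinic acetylcholine receptor (0.063), Mical2, an actin-oxidising enzyme (0.064), Fam171a2 (0.071) and Mapkapk3, a kinase downstream of p38 (0.076). Rab4a had 9.92, 10.6 and 11.5 CPM across the controls, against 6.19, 6.50 and 5.99 CPM across the mutants. Chrm3 had 12.5, 13.8 and 14.0 CPM in the control libraries and 8.57, 8.82 and 9.18 CPM in the mutant ones. As these 5 were picked for their likeness to Jag1, all were lower in every mutant library, with log2 values of -0.78 to -0.58, and none of that is a test.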

How the data were processed

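Whole-pancreas RNA from 3 control and 3 mutant libraries was analysed from the deposited counts, whole numbers of reads per gene symbol in each library, which the authors made. Build mm10 and the tools STAR, HTSeq 0.6.1p1, cutadapt 1.13 and DESeq2 are listed in the submitters' processing notes, without their role or order. Not given in the sources used here are the annotation, the strand setting and what was done with reads matching several genes.

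Counts were scaled by TMM, filtered with filterByExpr (minimum count 10) and tested with edgeR 4.0.16 (quasi-likelihood, R 4.3.3), with Benjamini-Hochberg adjustment over 13017 genes and a threshold of 0.05. The fit was first tested on simulated data. Means carry the SD over 3 libraries, and 95% intervals come from the quasi-likelihood t quantile. Ratios used counts plus 0.5. Alternatives used DESeq2 1.42.0, limma 3.58.1 and other scalings, filters and sets of libraries, 14 in all, and lengths of the longest transcript were added after seeing the data. Coordinates and exon lengths are from GENCODE M21 (GRCm38, the assembly of mm10), and promoters from RefSeq (GRCm38.p6). No overlap of exons between genes was corrected for.

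The 10 genes and all lists were chosen with earlier results of these data known. Named were the 10 genes and Prox1, for each pathway list every called gene and the 2 most abundant, the 5 genes nearest to each called member, and the first 2 genes of a marker list; other names are marked as chosen after their values were seen, and 1 gene that the rule names is not reported here. Within groups, library pairs differed by more than counting error (chi-square per degree of freedom 5.83 to 20.5), so none was a copy of another.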

Additional observations from a re-analysis of the deposited data

How the results depend on the processing

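Over 14 alternatives Jag1 stayed lower, from -0.71 to -0.51, and was lost with library totals alone; without 1 library each it ran from -0.71 to -0.63 (edgeR adjusted p 0.0121 to 0.0441). Library totals moved the median of all genes to 0.17, gave 0 of the 10 genes and 0 other pathway genes called lower, moved all calls from 197 lower and 71 higher to 130 lower and 190 higher, and turned Notch2 to 0.03 and Hey1 to 0.018. The DESeq2 test called 2 other pathway genes lower (Lfng and Rbpjl) and 0 higher. Leaving out 1 library at a time gave 0 to 2 other pathway genes called lower, 0 to 1 higher, 98 to 202 of all genes lower and 27 to 99 higher. Lowest counts of all genes were those without control 2. Hey1 then ran from -0.38 to 0.024 (without mutant 3; 0.0046 without control 3) and Notch3 from -0.090 (without mutant 2) to 0.34. No pairing by replicate number was seen: same-numbered deviations correlated at 0.0798, 0.0289 and -0.0708, beside -0.109 to 0.111 for differently numbered ones. Centring within groups of 3 ties these values together, so a weak pairing could go unseen. With the replicate block Jag1 was -0.67 (edgeR adjusted p = 0.0248), 0 other pathway genes were called higher and 1 lower, and 188 and 53 of all genes were lower and higher. No ratio of Jag1 changed direction with 5 counts added or without any 1 library. Where an alternative changed a call, the cause was not tested.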

Other observations

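The following pathway genes fall outside the rule for names, were not called and were picked with their values in view. The first 4 are among the 17 of 57 further pathway genes whose groups did not overlap (11 lower and 6 higher in mutants, beside 9.86% and 9.13% of all tested genes). Dtx4, of the Deltex family of ubiquitin ligases, had control levels of 25.1, 25.1 and 24.9 CPM and mutant levels of 18.9, 19.96 and 19.0 CPM (-0.38 ± 0.10 (SE), edgeR adjusted p = 0.102). Tle4, a Groucho-family corepressor that Hes proteins recruit, had 4.51, 4.53 and 4.42 CPM across the controls, against 7.43, 6.96 and 5.99 CPM across the mutants (0.60 ± 0.18 (SE), edgeR adjusted p = 0.171). Neurl1a, a Neuralized-like ligase, had 1.80, 2.32 and 1.06 CPM in the control libraries and 4.19, 4.29 and 2.99 CPM in the mutant ones (1.16 ± 0.33 (SE), edgeR adjusted p = 0.145). Psenen, a gamma-secretase subunit, had control levels of 2.11, 1.66 and 1.83 CPM and mutant levels of 1.05, 1.28 and 0.599 CPM (-0.93 ± 0.36 (SE), edgeR adjusted p = 0.313). Dtx1, which is also a lymphocyte gene, had 3.48 CPM in mutant 2, the library with the highest lymphocyte marker sum. It had 0.381 and 0.799 CPM in mutants 1 and 3, from 4 to 30 counts a library over both groups. Controls had 2.26, 1.33 and 1.54 CPM, so its groups overlapped. Their lymphocyte sums ran in another order, at 7.97, 24.0 and 29.0 CPM, and a link to lymphocytes was not tested.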
